A study of Bos taurus with 30 samples.

Results

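Receptor and cytokine genes of peripheral white blood cells (PWBCs) were followed through storage of blood at 4 °C, and 74 such genes of the 27607 genes with counts were examined. They were taken from the printed part of the study's result table, which is ordered by gene identifier and lists 1630 genes. A gene was a member if its description held receptor, interleukin, chemokine, interferon or tumor necrosis, and did not hold zinc finger, ubiquitin or mitochondri. A CPM (a gene's counts scaled to a library total of 1000000 counts) above 1 in at least 5 of the 30 libraries was also required, which removed 0 genes. The words matched 76 genes, and 2 of them, IL18R1 and PTGER2, were left out because the study lists them in its gene ontology tables. Those tables hold genes that the study took as changed by storage, so the choice of members was not independent of the 24 h comparison, although neither gene was called at 24 h by the rule used here. Of the 74 members, 48 encode a receptor or a ligand, whereas 26 are only named after one, such as adaptors, phosphatases and cofactors.

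The study sequenced mRNA of PWBCs from 5 female cattle, estrus-synchronized Angus x Simmental crossbred heifers that had received gonadotrophin-releasing hormone, a progesterone insert and prostaglandin F2alpha. Each heifer gave 1 sample from the coccygeal vein of the tail, processed at 1 h, and 5 samples from the jugular vein of the neck, processed at 1, 3, 6, 8 or 24 h, all in EDTA tubes on ice. The buffy coat was then separated, red cells were lysed and the cells were taken up in TRIzol. The groups used here were coccygeal blood at 1 h (5 libraries), jugular blood at 1 h (5 libraries), jugular blood at 24 h (5 libraries) and jugular blood at 3, 6 or 8 h (15 libraries together). The heifers of the first 3 groups are named subjects A to E. The 15 libraries of 3 to 8 h could not be joined to a single time or subject and were placed in their group by elimination, so their lowest, median and highest values are given with no test.

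White blood cells sense their surroundings through surface receptors that bind cytokines, chemokines, lipids or antibodies, and pass the signal on through kinases, phosphatases and G proteins. Cytokines such as interleukin 1 beta are made by activated monocytes and neutrophils, and chemokine receptors steer cells between blood, bone marrow and tissue. Blood holds several cell types with different receptors, including eosinophils, neutrophils, monocytes, T cells, B cells and natural killer cells. In a bulk sample, fewer cells of a type and less RNA per cell cannot be told apart.

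The total count per library was 12412619 to 19492274, so that 3 counts were 0.154 to 0.242 CPM. A gene was taken as called where the Benjamini-Hochberg adjusted p (false discovery rate, FDR) was under 0.05 in both edgeR and DESeq2 and the absolute log2 fold change in edgeR was above 0.5, with the subject as a block. At 24 h against 1 h, 357 of 13630 genes tested were called (2.62%), and between the veins at 1 h 0 were called. Marker genes of platelets summed to 449.5 to 644 CPM in jugular blood at 1 h and 612 to 866 CPM at 24 h (5 genes, 3 of them called, all 3 higher). Those of T cells summed to 280.0 to 451 and 249 to 359 CPM (2 genes matched, of which TCF7 was lower with an FDR under 0.05 in both tools), and those of B cells to 463 to 581 and 506 to 731 CPM (3 genes), with 0 called. The 3 monocyte genes summed to 136 to 207 and 117 to 197 CPM and the 4 genes of natural killer and cytotoxic cells to 207 to 314 and 214 to 307 CPM, again with 0 called, while PRF1 of the last list was lower with an FDR under 0.05 in both tools. The 4 erythroid genes summed to 143 to 521 and 147 to 208 CPM, with 1 called, TMCC2, higher. The top of the 1 h range was subject A, whose NFE2 level went from 480.3 to 150 CPM. NFE2 was lower after storage in 3 of 5 subjects. The other genes of this list went mostly the other way, PHOSPHO1 and TMCC2 higher in 5 of 5 subjects and GATA1 in 3 of 5. In coccygeal blood at 1 h the platelet marker genes summed to 473 to 925 CPM. The top value, in subject B, was above every 24 h sum, while each other subject was below its own 24 h sum. No marker gene of any list was at 0 in a library. What these cell types contributed to the changes described here was not tested.

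The members spanned a wide range of transcript abundance at 1 h. Scaled to transcript length, the highest mean in jugular blood was that of SSR2, a subunit of the complex that receives secreted proteins at the endoplasmic reticulum, with 256 CPM per kb. It was followed by the sphingosine-1-phosphate receptor gene S1PR4 (87.1 CPM per kb) and FCGR3A, a receptor for the Fc part of antibodies (83.8 CPM per kb). The lowest levels per length were those of FZD7, a receptor for Wnt proteins (0.868 CPM per kb), and ENSBTAG00000003289, which encodes C-C motif chemokine 3 (0.750 CPM per kb). S1PR4, FCGR3A and ENSBTAG00000000144, a T-cell receptor gamma chain C region (80.1 CPM per kb), lay within their standard deviations of each other (12.0, 20.9 and 26.3, n = 5). The chemokine 3 gene was the only member that did not have a CPM above 1 in 5 of the 15 libraries of known subject, and it was not tested, which left 73 members.

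The first comparison asked whether the members' transcript abundance differed after 24 h at 4 °C from blood processed at 1 h. Of the 73 members tested, 1 was called, against 2.62% of all genes tested, and that member was IL5RA, which was lower (1.14% of all genes were called lower). At a share of 2.62%, 0 called members in a group of 10 or fewer is no result about that group. Without the fold threshold, 9 members had an FDR under 0.05 in both tools (12.3%), against 9.48% of all genes tested. The 7 lower ones (9.59%, against 4.56% of all genes) included IL5RA, KIT, CXCR4, PILRA, PTPRE and ADGRL1, and the 2 higher ones (2.74%, against 4.92%) were PTPN23 and TRPV2. An FDR under 0.05 was found for 12 members with edgeR taken alone (16.4%, against 12.2%) and for 9 with DESeq2 taken alone (12.3%, against 10.6%), and an unadjusted edgeR p under 0.05 for 30 (41.1%, against 28.6%). The fitted change was below 0 in 42 of 73 members (57.5%, against 48.2%). The median log2 fold change of the members was -0.043, and it was 0.0084 over all genes tested. The change was under 0.2 in size in 45 of 73 members (61.6%, against 66.1% of all genes tested), and 2 members, IL5RA and BMX, passed 0.5 (2.74%, against 7.01% of all genes tested). In the printed part of the study's result table, from which the members came, 1158 of 1626 genes tested were under 0.2 and 63 passed 0.5. The 2 genes left out by the rule, IL18R1 (-0.61) and PTGER2 (-0.64), also passed 0.5 in size. The values at 1 h and 24 h overlapped between the groups for all 73 members tested, while they did not overlap for 3.95% of all genes tested. Leaving out subject A, B, C, D or E gave 2, 3, 6, 5 or 4 members with an FDR under 0.05 in both tools (2.74, 4.11, 8.22, 6.85 or 5.48%), against 4.18, 4.80, 7.61, 5.61 or 5.03% of all genes tested, and PTPN23 was among them each time.

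**Figure D1:**
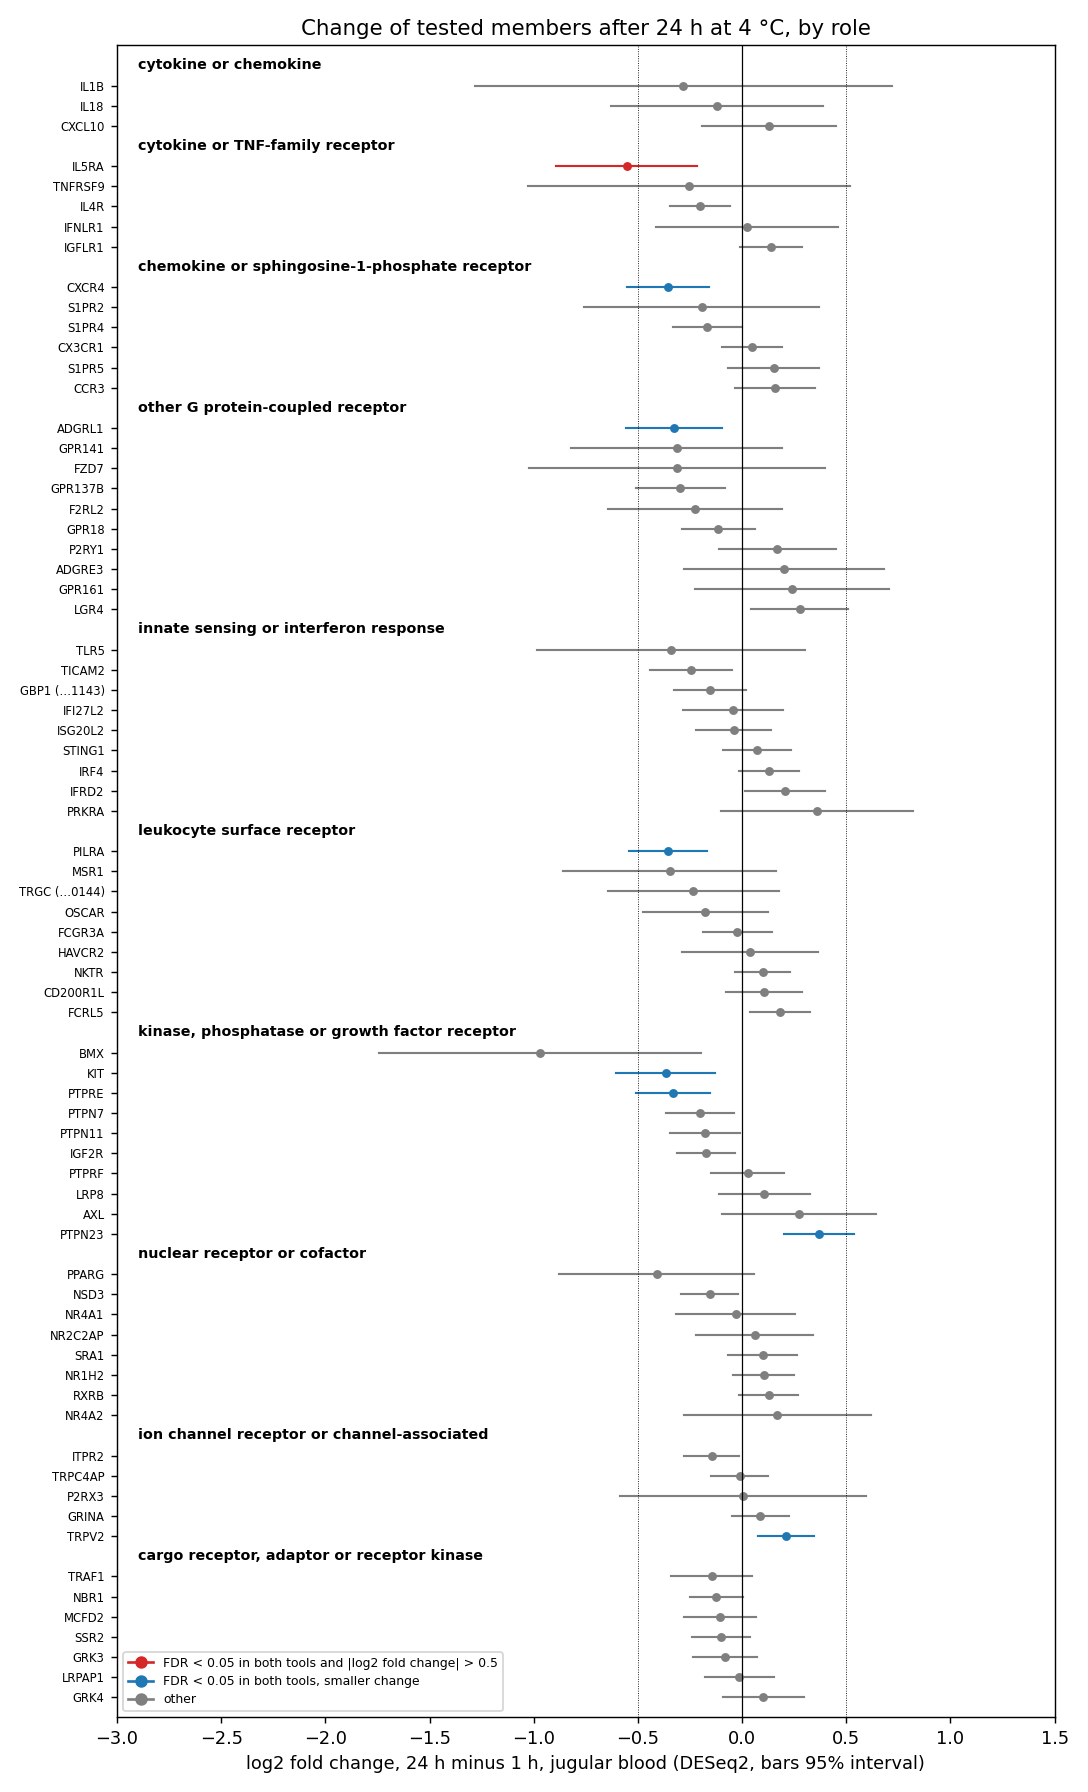
Log2 fold change of 72 of the tested members between 24 h and 1 h of jugular blood, as DESeq2 estimated it, with bars for the 95% interval and dotted lines at a log2 fold change of 0.5 in size. Most points lie close to 0, IL5RA is the only member past the full rule, and the members with an FDR under 0.05 in both tools and a smaller change lie on both sides of 0.

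IL5RA encodes the receptor subunit that binds interleukin 5, the main growth and survival factor of eosinophils (chromosome 22, 23199161 to 23239003 in ARS-UCD1.2, plus strand). In subjects A to E its level in jugular blood was 9.95, 20.0, 6.91, 10.4 and 13.8 CPM at 1 h and 5.84, 10.1, 6.11, 7.64 and 11.1 CPM at 24 h. The level was lower at 24 h in 5 of 5 subjects, with the largest fall in subject B, whose 1 h level was the highest. The fitted level fell by 32.0% (log2 fold change -0.56, FDR 0.0235 in edgeR and 0.0169 in DESeq2, DESeq2 95% interval -0.89 to -0.22). In coccygeal blood of the same subjects at 1 h the level was 8.33, 11.1, 9.43, 10.6 and 11.4 CPM, so that subject B stood near the others there. Against that library the 24 h level was also lower in 5 of 5 subjects, with a mean log2 difference of -0.35, a value that shares the 24 h libraries with the main comparison. The 15 libraries of 3 to 8 h gave 4.06 to 17.2 CPM (median 8.91), between the medians of 1 h and 24 h. The call was lost without subject A (-0.51), without subject B (-0.43) or without subject D (-0.58), and also without the block by subject (-0.59), while the log2 fold change was below 0 in each of these fits.

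CCR3, the eotaxin receptor of eosinophils, was set beside IL5RA after its values were seen. Its level in subjects A to E was 55.2, 47.3, 36.2, 23.2 and 35.9 CPM at 1 h and 62.4, 55.0, 45.9, 24.4 and 35.2 CPM at 24 h, higher in 4 of 5 subjects, and it did not pass the test (log2 fold change 0.16, FDR 0.164 in edgeR and 0.342 in DESeq2). The log2 ratio of IL5RA to CCR3 was lower at 24 h than at 1 h in 5 of 5 subjects, from -2.46, -1.24, -2.37, -1.14 and -1.38 in subjects A to E to -3.39, -2.44, -2.88, -1.66 and -1.65. Against coccygeal blood at 1 h (-2.15, -2.64, -1.87, -1.25 and -1.66) the ratio at 24 h was lower in 3 of 5 subjects, and it was higher in subjects B and E. These are values of the same libraries that gave the IL5RA result, and the difference between the 2 genes was not tested.

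Of the 4 other cytokine and TNF-family receptors 0 were called, against 2.62% of all genes tested. IL4R, the receptor subunit for interleukins 4 and 13, had 154, 134, 114, 148 and 141 CPM at 1 h and 129.8, 109.5, 103, 140.0 and 119 CPM at 24 h. It was lower in 5 of 5 subjects and passed an FDR of 0.05 in edgeR only (log2 fold change -0.20, FDR 0.0378 in edgeR and 0.0514 in DESeq2). IGFLR1, a TNF receptor-like protein with the highest level per length in its group (43.3 CPM per kb), had 91.3 ± 20.8 CPM in 1 h blood and 101 ± 21.6 CPM in 24 h blood (SD, n = 5), was higher in 5 of 5 subjects and did not pass the test (log2 fold change 0.14, FDR 0.135 in edgeR and 0.256 in DESeq2). IFNLR1, a subunit of the interferon lambda receptor, and TNFRSF9, which encodes the co-stimulatory receptor 4-1BB, had log2 fold changes of 0.03 and -0.27 with DESeq2 intervals of -0.41 to 0.46 and -1.03 to 0.52. At 1.12 and 1.00 CPM per kb these 2 receptors were among the lowest members, and a change of 0.5 in either direction lay within the interval of TNFRSF9 but not within that of IFNLR1.

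Of the 3 genes of secreted cytokines and chemokines that were tested 0 were called, against 2.62% of all genes tested. IL1B encodes interleukin 1 beta, a cytokine of acute inflammation, and had the highest level per length of its group (31.7 CPM per kb). In subjects A to E it had 179, 27.2, 18.1, 42.0 and 39.6 CPM at 1 h and 38.9, 34.8, 26.7, 21.5 and 63.1 CPM at 24 h. Subject A stood far above the others at 1 h and among them at 24 h, and IL1B was lower at 24 h in 2 subjects and higher in 3. The change did not pass the test (log2 fold change -0.33, FDR 0.741 in edgeR and 0.823 in DESeq2, DESeq2 95% interval -1.28 to 0.72), and without subject A its direction reversed (0.16). IL18, which encodes an interleukin 1 family cytokine that induces interferon gamma, had 4.69 ± 1.93 CPM in 1 h blood and 4.10 ± 0.605 CPM in 24 h blood (SD, n = 5; log2 fold change -0.15, or 0.05 without subject A). CXCL10, an interferon-induced chemokine, had 9.47 ± 2.62 CPM in 1 h blood and 10.3 ± 2.82 CPM in 24 h blood (log2 fold change 0.13), and neither passed the test. The untested chemokine 3 gene had 1.18, 0.487, 0.457, 1.92 and 0.725 CPM at 1 h and 0.426, 0.494, 0.455, 1.58 and 0.552 CPM at 24 h.

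Among the chemokine and sphingosine-1-phosphate receptors, CXCR4 was the member with the largest change. It encodes the receptor for CXCL12, which retains white blood cells in bone marrow (chromosome 2, 61250082 to 61253877, plus strand). CXCR4 had 124, 130.5, 81.2, 69.8 and 90.0 CPM at 1 h and 70.6, 121, 65.6, 53.1 and 80.7 CPM at 24 h in subjects A to E. It was lower in 5 of 5 subjects, by 0.81 on the log2 scale in subject A and by 0.11 in subject B (log2 fold change -0.36, FDR 0.0416 in edgeR and 0.00707 in DESeq2). In the coccygeal blood of 1 h the levels were 106, 129.6, 90.9, 67.8 and 106 CPM, and subject D was the lowest and subject B the highest in every one of the 3 groups. The 3 to 8 h libraries had 62.4 to 129.6 CPM (median 90.5), a median near that of 1 h.

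S1PR4 and S1PR5 encode receptors for sphingosine-1-phosphate, a lipid that guides lymphocytes out of tissue into blood. S1PR4 had 81.8, 94.1, 72.9, 96.9 and 104 CPM at 1 h and 70.0, 89.2, 68.3, 93.6 and 79.6 CPM at 24 h, lower in 5 of 5 subjects, and S1PR5, a receptor of natural killer cells, had 28.6, 35.5, 39.4, 40.5 and 28.3 CPM at 1 h and 36.9, 44.7, 45.0, 42.5 and 23.9 CPM at 24 h, higher in 4 of 5. Neither passed the test (log2 fold change -0.17, edgeR FDR 0.117 for S1PR4 and 0.15, 0.295 for S1PR5). CX3CR1, the fractalkine receptor of monocytes and cytotoxic lymphocytes, had 152, 158, 249, 339.5 and 126 CPM at 1 h and 163, 161, 281, 304 and 136 CPM at 24 h. Its levels differed up to 2.69-fold between subjects at 1 h, while its change at 24 h was 0.049 on the log2 scale (DESeq2 95% interval -0.095 to 0.19). S1PR2 was low, with 2.85 ± 0.883 CPM in 1 h blood and 2.45 ± 0.464 CPM in 24 h blood (SD, n = 5), and its log2 fold change of -0.20 did not pass the test.

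The 10 other G protein-coupled receptors included 6 with lower and 4 with higher values at 24 h, and 1 with an FDR under 0.05 in both tools, where 48.2% of all genes tested were lower and 9.48% passed in both tools. That member was ADGRL1, an adhesion receptor of the latrophilin family (chromosome 7, 11509948 to 11560792, plus strand), with 23.1, 27.8, 39.3, 17.2 and 23.6 CPM at 1 h and 17.5, 26.1, 26.6, 12.8 and 21.4 CPM at 24 h. ADGRL1 was lower in 5 of 5 subjects (log2 fold change -0.32, FDR 0.0395 in edgeR and 0.049 in DESeq2), subject C had the highest and subject D the lowest level at each time, and the 3 to 8 h libraries had 14.5 to 34.1 CPM (median 27.4). GPR137B, a lysosomal membrane protein, was lower in 5 of 5 subjects, with 36.6 ± 8.00 CPM in 1 h blood and 29.5 ± 4.98 CPM in 24 h blood (SD, n = 5), and passed in edgeR only (log2 fold change -0.30, FDR 0.044 in edgeR and 0.0528 in DESeq2).

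ADGRE3, an adhesion receptor of myeloid cells, had the highest level per length among these receptors (46.9 CPM per kb) and varied widely. It had 165, 66.6, 51.7, 51.4 and 96.9 CPM at 1 h and 115, 113, 85.2, 45.5 and 113 CPM at 24 h, without a common direction (log2 fold change 0.20, FDR 0.58 in edgeR and 0.712 in DESeq2). With 1 subject left out, the log2 fold change of ADGRE3 ranged from 0.055 (without B) to 0.39 (without A). P2RY1, an ADP receptor of platelets, had 26.5, 20.2, 15.8, 22.3 and 19.7 CPM at 1 h and 34.4, 30.3, 20.1, 17.7 and 17.6 CPM at 24 h and was higher in 3 of 5 subjects (log2 fold change 0.17, FDR 0.428 in edgeR and 0.542 in DESeq2), beside a platelet marker sum that was higher in 5 of 5. Of the genes in that sum, GNG11, NRGN and LY6G6F were higher in 5 of 5 subjects, TMEM40 in 4 of 5 and THBS1 in 3 of 5. The log2 fold change of P2RY1 was 0.066 without subject B and 0.30 without subject D. GPR18, GPR141 and F2RL2, which encodes the thrombin receptor PAR3, were lower in 5 of 5 subjects each with log2 fold changes of -0.11, -0.31 and -0.23, and GPR161 was higher in 5 of 5 with 0.24. LGR4, a receptor for R-spondins, was higher in 4 of 5 (0.28) and FZD7 was lower in 4 of 5 (-0.30). None of these 6 passed the test.

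**Figure D2:**
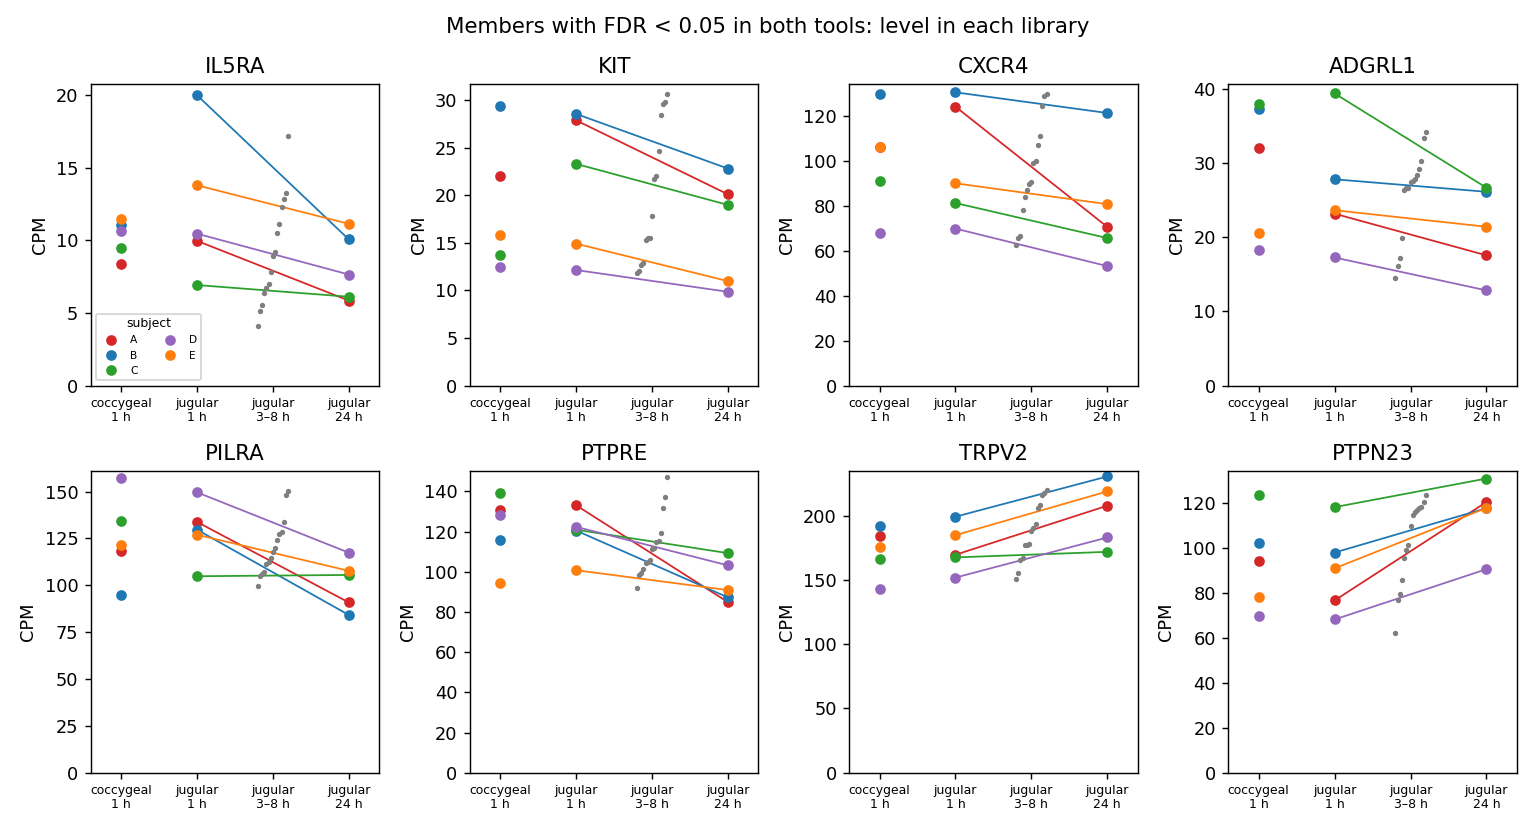
Level in CPM of 8 members with an FDR under 0.05 in both tools, in each library, with 1 colour per subject and lines from 1 h to 24 h of jugular blood. Grey points are the 15 libraries of 3 to 8 h, set out in increasing order with no time or subject. The lines of PTPN23 and TRPV2 rise and those of the other members fall in all 5 subjects, except for PILRA in subject C.

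Among the leukocyte surface receptors, PILRA, an inhibitory receptor of myeloid cells (chromosome 25, 36137411 to 36154811, minus strand), had 134, 129.7, 105, 149.6 and 127 CPM at 1 h and 90.8, 84.1, 106, 117 and 108 CPM at 24 h. It was lower in 4 of 5 subjects and nearly the same in subject C (log2 fold change -0.35, FDR 0.0306 in edgeR and 0.00435 in DESeq2). The 3 to 8 h libraries had 99.7 to 150.3 CPM (median 118). The monocyte marker sum was also lower in 4 of 5 subjects, and in subject C it was 136 CPM at 1 h and 140 CPM at 24 h. Its part in the PILRA values was not tested. FCGR3A had 196, 129.8, 150.0, 207 and 116 CPM at 1 h and 176, 110.2, 177, 202 and 123 CPM at 24 h, and its DESeq2 95% interval of -0.19 to 0.14 on the log2 scale left out a change of 0.2 in either direction. FCRL5, an Fc receptor-like protein of B cells, had 284, 238, 246, 196 and 205 CPM at 1 h and 362, 277, 259, 233 and 208 CPM at 24 h and was higher in 5 of 5 subjects, but did not pass the test (log2 fold change 0.18, FDR 0.0766 in edgeR and 0.0857 in DESeq2). The B cell marker sum was higher in 4 of 5 subjects, and its part in the FCRL5 values was not tested.

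The T-cell receptor gamma gene had 185, 193, 187, 94.9 and 99.8 CPM at 1 h and 92.0, 224, 159, 76.7 and 111 CPM at 24 h. Its level was lower in 3 of 5 subjects, with most of the difference in subject A (log2 fold change -0.23, FDR 0.442 in edgeR and 0.566 in DESeq2), and the T cell marker sum was lower in 5 of 5. MSR1, a scavenger receptor of macrophages, was lower in 5 of 5 subjects with 3.61 ± 0.520 CPM in 1 h blood and 2.84 ± 0.462 CPM in 24 h blood (SD, n = 5; log2 fold change -0.35, edgeR FDR 0.16). HAVCR2, which encodes the checkpoint receptor TIM-3, had 10.5 ± 2.40 CPM in 1 h blood and 10.7 ± 1.99 CPM in 24 h blood with a log2 fold change of 0.035. CD200R1L, OSCAR and NKTR had log2 fold changes of 0.11, -0.18 and 0.099, that of OSCAR was 0.038 without subject A, and none of these 5 genes passed the test.

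Genes of innate sensing and of the interferon response gave 0 calls among 9 members, against 2.62% of all genes tested. TICAM2, an adaptor of toll-like receptor 4, had 32.8, 30.2, 34.1, 44.0 and 33.6 CPM at 1 h and 25.4, 25.4, 30.1, 35.2 and 31.5 CPM at 24 h, lower in 5 of 5 subjects, and passed in edgeR only (log2 fold change -0.24, FDR 0.0444 in edgeR and 0.0933 in DESeq2). TLR5, the flagellin receptor, had the largest change of its group in size with all subjects, and without subject A it was -0.21, below that of PRKRA in size (0.50). It had 2.57, 0.596, 2.94, 4.82 and 2.34 CPM at 1 h and 1.22, 0.769, 2.40, 3.16 and 2.52 CPM at 24 h, with subject D highest and subject B lowest at both times, and did not pass (log2 fold change -0.37, FDR 0.288 in edgeR and 0.605 in DESeq2). IRF4, a transcription factor of B cells and plasma cells with the highest level per length of its group (66.0 CPM per kb), had 241, 308, 378, 269 and 363 CPM at 1 h and 313, 316, 418, 283 and 368 CPM at 24 h, higher in 5 of 5 subjects (log2 fold change 0.13, FDR 0.201 in edgeR and 0.284 in DESeq2). Its log2 fold change was 0.0698 without subject A.

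STING1, the sensor of cyclic dinucleotides, had 97.1 ± 9.27 CPM in 1 h blood and 102 ± 8.34 CPM in 24 h blood (SD, n = 5), and its DESeq2 95% interval was -0.093 to 0.24. ENSBTAG00000001143, which encodes guanylate-binding protein 1, an interferon-induced GTPase, had 130.0 ± 29.4 CPM in 1 h blood and 117 ± 24.6 CPM in 24 h blood (log2 fold change -0.15, or -0.062 without subject A). PRKRA, an activator of the kinase PKR, had a log2 fold change of 0.35, and IFRD2, named after interferon only, was higher in 5 of 5 subjects with 0.21. IFI27L2 and ISG20L2 had -0.043 and -0.039. None of these 6 passed the test, and in the list of 26 further genes of innate and cytokine signalling 0 were called (2.62% of all genes tested), while 1, UNC93B1, had an FDR under 0.05 in both tools (9.48% of all genes tested). UNC93B1, a chaperone of endosomal toll-like receptors, was higher in 5 of 5 subjects (log2 fold change 0.27). In that list 18 genes were lower and 8 higher, with a median of -0.071, against 48.2% lower and a median of 0.0084 over all genes tested. MYD88, the adaptor of most toll-like receptors, had -0.23, and NLRP3, the inflammasome sensor, had -0.44, and neither passed in both tools.

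Of the 10 kinases, phosphatases and growth factor receptors, 2 were lower and 1 was higher with an FDR under 0.05 in both tools, where 9.48% of all genes tested passed. A difference between the roles was not tested. KIT encodes the stem cell factor receptor, found on mast cells and blood progenitors (chromosome 6, 70166692 to 70254044, plus strand). It had 27.9, 28.5, 23.3, 12.1 and 14.9 CPM at 1 h and 20.1, 22.8, 19.0, 9.84 and 11.0 CPM at 24 h, lower in 5 of 5 subjects by between 0.29 and 0.47 on the log2 scale (log2 fold change -0.37, FDR 0.0152 in edgeR and 0.0267 in DESeq2). Against coccygeal blood of 1 h (22.0, 29.4, 13.7, 12.5 and 15.8 CPM) KIT was lower at 24 h in 4 of 5 subjects and higher in subject C (0.46). The mean log2 difference was -0.18. The 3 to 8 h libraries had 11.9 to 30.7 CPM, and their median of 17.8 lay below that of 24 h.

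PTPRE, a receptor-type tyrosine phosphatase (chromosome 26, 47395179 to 47501339, plus strand), had 133, 121, 121, 122 and 101 CPM at 1 h and 84.8, 87.2, 109, 103 and 90.9 CPM at 24 h. PTPRE was lower in 5 of 5 subjects (log2 fold change -0.33, FDR 0.0251 in edgeR and 0.00471 in DESeq2), and the 3 to 8 h median of 111 CPM lay between those of 1 h and 24 h. PTPN23, a non-receptor phosphatase of endosomal sorting (chromosome 22, 52263501 to 52284441, minus strand), had 76.5, 97.8, 118, 68.1 and 90.8 CPM at 1 h and 120.3, 118, 131, 90.4 and 118 CPM at 24 h. PTPN23 was higher in 5 of 5 subjects (log2 fold change 0.37, FDR 0.013 in edgeR and 0.000608 in DESeq2), by 29.1% in the fit, and also against coccygeal blood of 1 h in 5 of 5. In the 3 to 8 h libraries PTPN23 had 62.2 to 123 CPM (median 109), and its FDR was under 0.05 in both tools whichever subject was left out.

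BMX, a kinase of the TEC family in myeloid and endothelial cells, had the largest log2 fold change of all members, -1.26, and did not pass the test (FDR 0.159 in edgeR and 0.0921 in DESeq2). It had 20.9, 1.68, 0.978, 1.92 and 1.21 CPM at 1 h and 2.80, 1.37, 0.974, 0.694 and 1.34 CPM at 24 h, so that the size of the change came from subject A, and without this subject it was -0.41. PTPN7, PTPN11, which encodes the phosphatase SHP2, and IGF2R, the receptor for insulin-like growth factor 2 and mannose 6-phosphate, were lower in 5 of 5 subjects each. Their log2 fold changes were -0.20, -0.18 and -0.17, with edgeR FDRs of 0.0573, 0.0942 and 0.0562. AXL, a receptor kinase for apoptotic cell recognition, was higher in 5 of 5 subjects (0.27, edgeR FDR 0.152). PTPRF and LRP8 had log2 fold changes of 0.027 and 0.11, or 0.0052 and 0.014 without subject A.

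Of the 8 nuclear receptors and their cofactors 0 were called, against 2.62% of all genes tested. PPARG, a lipid-activated nuclear receptor, had 6.00, 4.17, 4.83, 5.75 and 4.19 CPM at 1 h and 3.29, 2.53, 4.94, 4.54 and 3.79 CPM at 24 h, lower in 4 of 5 subjects (log2 fold change -0.41, FDR 0.127 in edgeR and 0.302 in DESeq2). NR4A1 and NR4A2, immediate-early genes that respond to cell stimulation, had 16.1 ± 1.96 CPM in 1 h blood and 15.8 ± 2.50 CPM in 24 h blood, and 4.51 ± 0.817 CPM in 1 h blood and 5.06 ± 0.714 CPM in 24 h blood (SD, n = 5). Their DESeq2 95% intervals were -0.32 to 0.25 and -0.28 to 0.62. RXRB and NR1H2, which encode the retinoid X receptor beta and the liver X receptor beta, were higher in 5 and 4 of 5 subjects with 0.13 and 0.10. SRA1, NR2C2AP and NSD3 had log2 fold changes of 0.10, 0.059 and -0.15, and NSD3 was lower in 5 of 5 subjects with an edgeR FDR of 0.0906.

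Of the 5 channel genes, TRPV2, a cation channel of the transient receptor potential family (chromosome 19, 33213076 to 33230717, minus strand), had 169.6, 199, 168, 152 and 185 CPM at 1 h and 208, 231, 172, 183 and 219 CPM at 24 h. TRPV2 was higher in 5 of 5 subjects, though by little in subject C (log2 fold change 0.21, FDR 0.0355 in edgeR and 0.0263 in DESeq2), and the 3 to 8 h libraries had 151 to 220.0 CPM (median 188). ITPR2, an inositol trisphosphate receptor of the endoplasmic reticulum, was lower in 5 of 5 subjects (-0.14, edgeR FDR 0.0944). GRINA, which had the highest level per length of this group (70.8 CPM per kb), TRPC4AP and the ATP-gated channel gene P2RX3 had 0.089, -0.01 and 0.0093. The interval of TRPC4AP was -0.15 to 0.13.

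Of the 8 cargo receptors, adaptors and receptor kinases, 0 were called, against 2.62% of all genes tested. SSR2, which had the highest level per length of all members, had 282, 283, 261, 306 and 299 CPM at 1 h and 235, 265, 246, 316 and 279 CPM at 24 h, lower in 4 of 5 subjects (log2 fold change -0.10, FDR 0.279 in edgeR and 0.416 in DESeq2). SSR2, NBR1, MCFD2, TRAF1, GRK3 and LRPAP1 had log2 fold changes between -0.15 and -0.011, and GRK4, a kinase of G protein-coupled receptors, had 0.10. NBR1, an autophagy receptor, was lower in 5 of 5 subjects, and none of these 7 passed the test.

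In the list of 11 further genes of G protein signalling 0 were called at 24 h (2.62% of all genes tested), and 1, RGS10, had an FDR under 0.05 in both tools (9.48% of all genes tested). RGS10, which speeds the shut-off of G proteins, was higher in 5 of 5 subjects (log2 fold change 0.24). The median of the list was -0.21, against 0.0084 over all genes tested. Among the 73 members tested, 20 were lower in all 5 subjects (27.4%, against 13.9% of all genes tested) and 10 were higher (13.7%, against 12.4%). Together these 30 were 41.1%, against 26.3% of all genes tested. With TMM scaling 24 members (32.9%) had 1 direction in all 5 subjects, against 26.2% of all genes tested, 17 of them lower (23.3%, against 13.1%) and 7 higher (9.59%, against 13.1%). The gene PTGER2, left out of the members, encodes a prostaglandin E2 receptor and had a log2 fold change of -0.64 (FDR 0.0225 in edgeR and 0.0525 in DESeq2). IL18R1, the other one left out, encodes a subunit of the interleukin 18 receptor and had -0.61 (FDR 0.131 in edgeR and 0.0324 in DESeq2).

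In most members, and in about the same share of all genes tested, levels varied more between subjects than between the veins of 1 subject. At 1 h, the standard deviation of log2 CPM between the 5 subjects had a median of 0.25 over the 73 members, against 0.21 over all genes tested, and that between the veins within a subject had a median of 0.12, against 0.14. The former exceeded the latter in 59 of 73 members (80.8%), against 79.5% of all genes tested. For 52 of 73 members (71.2%) the mean change at 24 h was smaller in size than the standard deviation between subjects, against 71.6% of all genes tested. The same subject had the highest level in coccygeal blood at 1 h, jugular blood at 1 h and jugular blood at 24 h for 24 of 74 members (32.4%), against 21.5% of all genes tested. The same held of the lowest level for 28 of 74 members (37.8%, against 24.7%).

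Single members differed in how far the order of the subjects was kept. CX3CR1 was highest in subject D in each group, with 338, 339.5 and 304 CPM in coccygeal blood at 1 h, jugular blood at 1 h and jugular blood at 24 h, and next highest in subject C. PRKRA was low in subjects B and D, with 5.85, 1.89, 5.87, 1.92 and 5.48 CPM in subjects A to E at 1 h and 5.30, 3.57, 7.41, 2.08 and 8.36 CPM at 24 h, and 4.63, 2.49, 4.58, 1.85 and 7.08 CPM in coccygeal blood. IFI27L2, named after interferon alpha-inducible protein 27, was low in subjects A and C, with 13.9, 30.7, 12.8, 23.5 and 26.9 CPM at 1 h and 12.3, 25.6, 13.2, 26.9 and 26.7 CPM at 24 h. The low subjects of PRKRA and IFI27L2 were the lowest pair at both times, whereas the highest subject changed, from C at 1 h to E at 24 h for PRKRA and from B to D for IFI27L2.

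**Figure D3:**
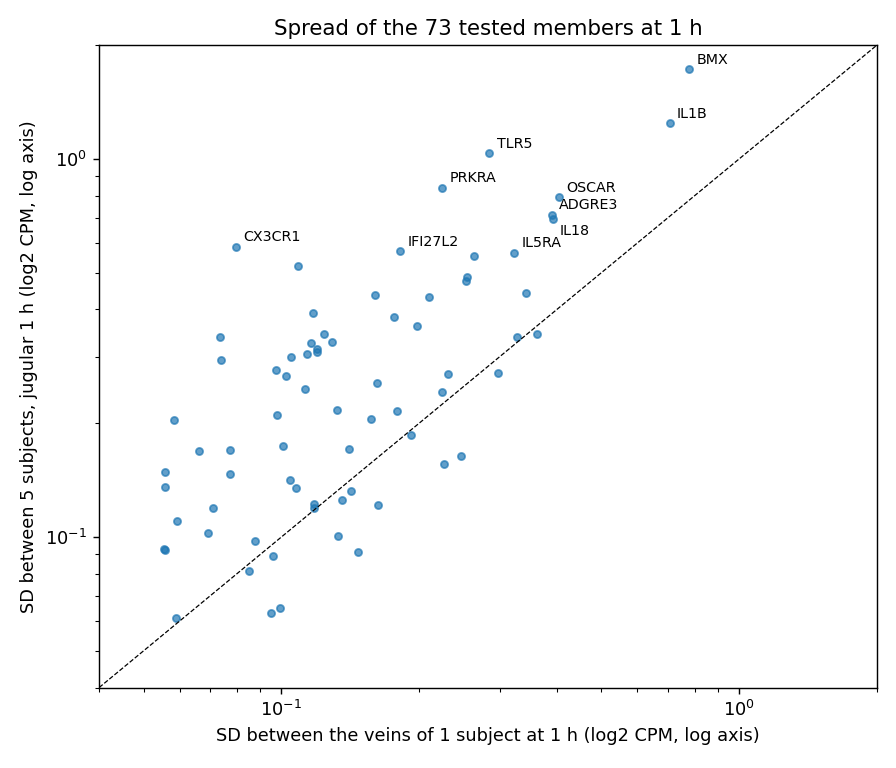
Standard deviation of log2 CPM between the 5 subjects in jugular blood at 1 h against that between the coccygeal and jugular veins within a subject, for the 73 tested members, both on log axes. Of the points, 80.8% lie above the dashed line of equality, against 79.5% of all genes tested, and BMX, IL1B and TLR5 have the highest spread between subjects.

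Several of the most variable members were high in libraries in which the neutrophil marker sum and NFE2, a gene of the erythroid list, were also high. The 4 neutrophil marker genes (PGLYRP1, TGM3, MXD1 and VSTM1) summed to 836, 179.6, 93.8, 147 and 125 CPM in subjects A to E in jugular blood at 1 h, and to 208, 192, 127, 89.6 and 148 CPM at 24 h. In coccygeal blood at 1 h they summed to 627, 125, 312, 151 and 119 CPM, so that subject A was high in both veins at 1 h and subject C in the coccygeal vein only. Of the 4 genes, TGM3 and MXD1 carried most of the sum in subject A, with 553 and 211 CPM, whereas PGLYRP1 had only 1.64 CPM there. The 4 erythroid marker genes summed to 521, 193, 143, 194 and 197 CPM in jugular blood at 1 h, 208, 188, 177, 147 and 202 CPM at 24 h and 416, 187, 337, 196 and 189 CPM in coccygeal blood, with subject A highest in both veins at 1 h and subject C second in the coccygeal vein. Most of this sum was NFE2, a transcription factor gene of the erythroid and megakaryocyte lineages. At 1 h NFE2 had 480.3, 147, 111, 163 and 160.4 CPM in jugular and 378, 107, 304, 169 and 156 CPM in coccygeal blood. The other genes of that list, GATA1, PHOSPHO1 and TMCC2, had 6.68 ± 2.49, 20.1 ± 1.61 and 10.4 ± 4.46 CPM in jugular blood at 1 h (SD, n = 5).

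IL1B, BMX and OSCAR, an activating receptor of myeloid cells, were high in the same coccygeal libraries. In subjects A to E of coccygeal blood IL1B had 121, 18.7, 77.0, 42.5 and 45.7 CPM, BMX had 10.2, 1.22, 4.24, 1.43 and 0.613 CPM and OSCAR had 46.8, 6.87, 50.0, 34.2 and 24.6 CPM. Subjects A and C were the 2 highest for each of these 3 genes. ADGRE3 did not have this order, with 108, 114, 85.8, 53.0 and 104 CPM in coccygeal blood, highest in subject B, and only subject D was below subject C. OSCAR had 46.8, 11.0, 24.9, 35.6 and 33.0 CPM in jugular blood at 1 h and 22.8, 13.1, 26.3, 32.8 and 32.7 CPM at 24 h, and subject B was the lowest in each group. Among the 15 libraries of 3 to 8 h, 1 library had the highest neutrophil marker sum, 1941 CPM, with the next at 663 CPM. The same library had the highest IL1B (421 CPM, next 137), BMX (30.3, next 13.3), OSCAR (96.2, next 48.9) and ADGRE3 (257, next 137). TLR5 and FCGR3A did not have their highest value in that library, where they ranked 12 and 6 of 15. NFE2 was also highest there (893 CPM, next 387), and it made up most of the erythroid marker sum of that library (926 CPM, next 428). The part of neutrophils or of erythroid cells in these values was not tested.

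**Figure D4:**
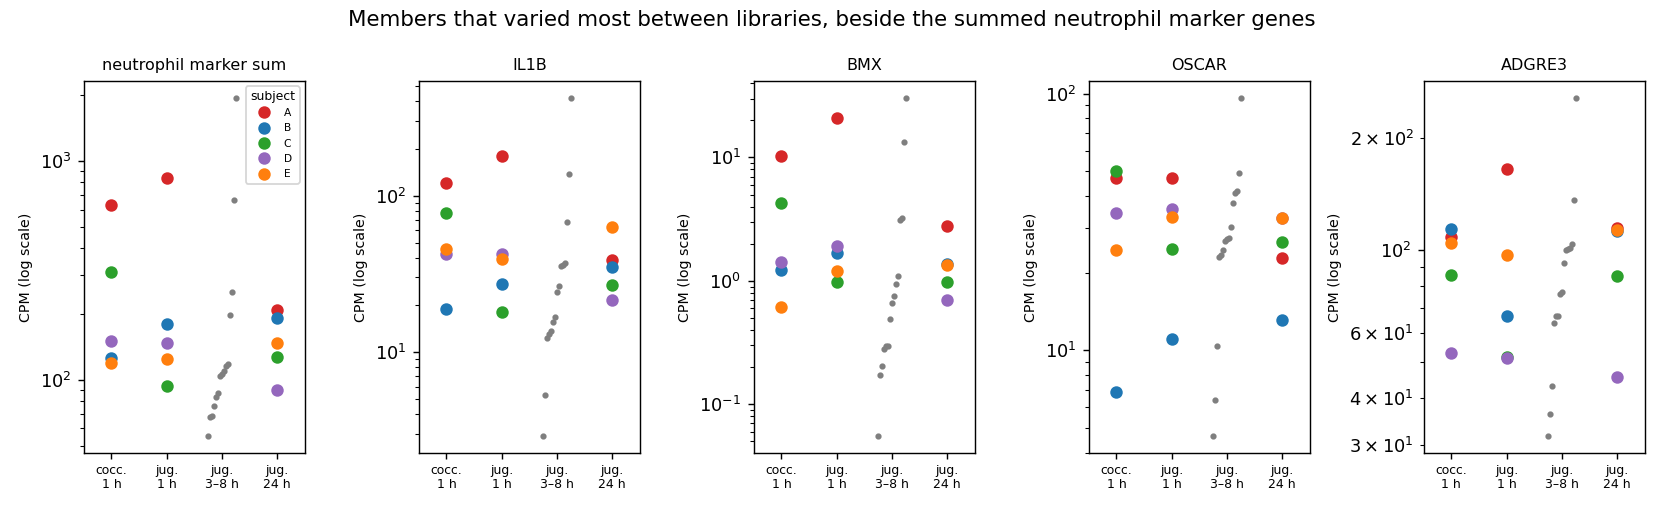
Sum of 4 neutrophil marker genes and levels of IL1B, BMX, OSCAR and ADGRE3 in CPM on log axes, in each library, with 1 colour per subject and grey points for the 15 libraries of 3 to 8 h in increasing order. Subject A is the highest in jugular blood at 1 h in every panel, and the highest grey point of every panel is the same library.

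The second comparison asked whether the members differed between blood of the coccygeal and the jugular vein at 1 h. Of the 73 members 0 were called, as of all genes tested (0%), and 0 had an FDR under 0.05 in edgeR alone or in DESeq2 alone. An unadjusted edgeR p under 0.05 was found for 0 members and for 1.91% of all genes tested. AXL had 8.33, 8.92, 5.13, 9.13 and 4.85 CPM in coccygeal and 6.98, 4.17, 5.67, 7.60 and 4.99 CPM in jugular blood of subjects A to E, the largest log2 fold change of the members, 0.30. It was higher in coccygeal blood in 3 of 5 subjects, mainly in subject B. FZD7 had 1.91, 0.720, 2.26, 1.85 and 1.34 CPM in coccygeal and 2.41, 1.30, 2.15, 1.63 and 2.09 CPM in jugular blood, lower in coccygeal blood in 3 of 5. Its log2 fold change was -0.27, with a DESeq2 95% interval of -0.96 to 0.38. IL5RA, the member called at 24 h, had a log2 fold change of -0.21 between the veins (edgeR p = 0.213, unadjusted).

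In the 15 libraries of 3 to 8 h, the median of 41 of 74 members (55.4%) lay between the medians of 1 h and 24 h, against 56.4% of all genes tested. Of the 9 members with an FDR under 0.05 in both tools, this was so for IL5RA, PILRA, PTPRE, PTPN23 and TRPV2. The medians of CXCR4 and ADGRL1 at 3 to 8 h were above that of 1 h, and that of KIT was below that of 24 h. Since these libraries pool 3 times and have no subject, no order in time was read from them.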

How the data were processed

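Polyadenylated RNA of 30 PWBC samples was sequenced. Per the labels and the study's methods, the authors trimmed read pairs (cutadapt 2.8), aligned them to ARS-UCD1.2 (HISAT2 2.2.0), filtered the alignments with SAMtools 1.10, removed duplicates with biobambam2 and used featureCounts (Subread 2.0.1) to count the fragments of each Ensembl gene. They deposited these counts without normalization. By the study's supplementary code the strand of a fragment was ignored in counting, and therefore overlapping and antisense genes are uncertain. Near-identical genes are also uncertain, among them FCGR3A, the guanylate-binding protein and the T-cell receptor genes.

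The same code gave the vein, time and subject of 15 columns, and the other 15 were joined to the 3 to 8 h group by elimination. The columns matched to no group were 0.

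The tests took the 13630 genes that passed a CPM of 1 in at least 5 of the 15 libraries of known subject. Each comparison was fitted on its 10 libraries, with the subject as a block, by edgeR 4.0.16 (quasi-likelihood test, library size scaling, robust, older fitting method) and DESeq2 1.42.0 (Wald test, default independent filtering) in R 4.3.3. Both tools adjust p by Benjamini-Hochberg over all genes tested. Log2 values of single libraries used a prior count of 2. Same-subject libraries deviated together, with correlations of 0.542 to 0.670 across genes for storage and 0.434 to 0.836 for veins. The steps were tested on simulated counts, drawn gene by gene and so without shifts shared by the genes of a library. The outcome of that test is not given here. The members, roles and gene lists were chosen with earlier results of these data known. In the T cell list, TRBV15 and TRBV3-1 matched no identifier by name.

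By rule, the text names members that were called, that had the highest level per kb or the largest change in their role, or that changed most between veins. Other members, among them those that passed in 1 tool only, are named to account for each role. Those with an FDR under 0.05 in both tools were singled out after their values were seen. Alternatives were TMM scaling, each tool alone, other fold thresholds and filters, other fitting settings, no block, 1 fit of 15 libraries and each subject left out. Intervals from DESeq2 cover the fitted spread between libraries, and floors of 3 counts cover counting error only. RNA integrity was not analysed here, and 1 member is counted but its own result is not reported here.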

Additional observations from a re-analysis of the deposited data

Results flagged for a closer look

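Levels of 23 members were checked in each of 3 groups of 5 libraries, 69 groups in all, for a library far from the others, and chance marks about 1 in 20 such groups. Among these 69 groups 2 were marked, both in jugular blood at 1 h and both in subject A. BMX had 20.9 CPM in subject A, and the next subject had 1.92 CPM. IL1B had 178.6 CPM in subject A, and the next subject had 42.0 CPM.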

How the results depend on the processing

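The 1 member called at 24 h, IL5RA, was also the 1 called with TMM scaling, with edgeR or DESeq2 alone, without a filter, with the filter over 30 columns or over all 15 libraries, without robust estimation, with the newer fitting method, without independent filtering and in 1 fit of 15 libraries. The count was 9 without a fold threshold and 0 with a threshold of 1 in its place. Without the replicate block, which drops the pairing by subject, 0 members were called (27 genes of all), and 0 had an FDR under 0.05 in both tools (39 genes of all). Leaving out 1 subject gave 0 to 2 called members, 0 without subject A and 2 without subject C, IL5RA among them (155, 236, 392, 282 and 293 of all genes without A, B, C, D and E), and 2 to 6 members with an FDR under 0.05 in both tools. That number, whose alternatives were added after seeing the data, was 8 to 12 in the other settings (11.0 to 16.4% of the members tested, against 5.78 to 12.2% of all genes). That all-gene share was lowest without a filter, where 23111 genes were tested. Between veins the count was 0 in every alternative. The 30 members with 1 direction in all 5 subjects (41.1%, against 26.3% of all genes tested) became 24 with TMM scaling (32.9%, against 26.2%). With 1 subject left out, the log2 fold change of IL1B ranged from -0.60 to 0.16 and reversed without subject A, and that of FCGR3A, -0.022 with all subjects, ranged from -0.087 to 0.032 and reversed without subject A (0.012) or B. Of the 73 members, 9, 7, 0, 2 and 3 changed direction without A, B, C, D and E (8.48, 8.12, 5.74, 9.25 and 8.99% of all genes). Why these values moved was not tested. In 396 of 411 values of the 23 members named by rule or for their FDR in both tools, direction and call under the alternatives were as in the main result. A call here is the full rule, which only IL5RA of these members passed in the main result. The tally does not count the loss of an FDR under 0.05 in both tools, so it does not show how well those results held. Other members named in the text are not in this tally, among them IL4R, GPR137B and TICAM2, which passed in edgeR only. Members under about 3 CPM, such as TNFRSF9, FZD7 and TLR5, had intervals that reach past a log2 fold change of 0.5 in size, which limits what can be said of them. The intervals of IL1B and ADGRE3, with means of 61.1 and 86.4 CPM at 1 h, also did so. Why these intervals were wide was not tested.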
